A study of Mus musculus with 18 samples.

Results

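The MBD3 landscape of the mouse cerebral cortex is described here from the 3 MBD3 peak lists of the series, restricted to chromosomes 1 to 19. The lists held 56738 peaks in animal 5, 61187 in animal 7 and 38821 in animal 9. These 156746 peaks were part of 488083 peaks in 15 lists of 5 antibodies. A peak is a stretch of the genome where immunoprecipitated DNA was enriched, and its summit is the base of highest enrichment.

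Cortices came frozen from the Jackson Laboratory and were taken from wild-type female C57BL/6J mice aged 14 weeks. Chromatin of the same 3 animals, numbered 5, 7 and 9, was immunoprecipitated with an antibody against MBD3 (Abcam ab157464). Chromatin was also precipitated for histone H3 acetylated at lysine 27 (H3K27ac), histone H3 monomethylated at lysine 4 (H3K4me1), RNA polymerase II phosphorylated at serine 5 (Pol II S5P) and thymine DNA glycosylase (TDG). The design holds no treatment and no second genotype, so each comparison is between antibodies, between peaks of 1 list, or between animals. Whole cortex mixes neurons and glia, and a weak peak in every cell and a strong peak in a few cells cannot be told apart.

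MBD3 is a subunit of the NuRD complex, which joins a chromatin remodelling ATPase to histone deacetylases. It belongs to the methyl-CpG binding domain family, although mammalian MBD3 has little affinity for methylated CpG. NuRD is known from active enhancers and promoters as well as from silenced genes. H3K27ac marks active promoters and enhancers, H3K4me1 marks active and primed enhancers, and Pol II S5P marks polymerase at the start of genes. TDG is a base excision repair enzyme that removes some oxidised forms of 5-methylcytosine.

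MBD3 peaks were short. The median width was 456 bp in animal 5, 444 bp in animal 7 and 388 bp in animal 9, so animal 9 stood below animals 5 and 7. The middle 50% of peaks ran from 305 to 754 bp, from 299 to 727 bp and from 285 to 568 bp in animals 5, 7 and 9. Peaks of at least 1 kb made up 15.0%, 13.7% and 5.25% of the lists. The widest single peaks measured 6248, 6947 and 3693 bp. Each list starts at its own smallest width, 219, 216 and 215 bp, and between 7.50% and 8.82% of the peaks lay within 10% of that limit. The lists therefore end abruptly at narrow widths, and peaks of fewer bases were not recorded.

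In the comparison of median widths between antibodies, MBD3 (429 ± 36.3 bp, SD, n = 3) lay between the histone marks and Pol II S5P. The mean of the list medians was 622 bp for H3K27ac and 366 bp for Pol II S5P, and in neither comparison did the lists of the antibodies overlap. The 3 animals against 3 gave p = 0.1 in a two-sided exact permutation test for each, the smallest value that this design allows, and 0.133 after Benjamini-Hochberg adjustment over 4 antibodies. For H3K4me1 the mean of the list medians was 485 bp, with lists that overlapped those of MBD3 (exact permutation p = 0.2). The lists of MBD3 and Pol II S5P overlapped with the stricter q-value of −log10 q at least 5 (exact permutation p = 0.2) and with peaks within 500 bp merged (exact permutation p = 0.2). They also overlapped where each antibody's lists were cut to its own shortest list, with a difference of 58.7 ± 131 bp (exact permutation p = 0.5). The lists of MBD3 and Pol II S5P still differed in length there, at 38821 and 4351 peaks. The difference from H3K27ac was −192.3 bp and became −375.3 bp with the stricter q-value and −366.3 bp with merged peaks.

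The summits of MBD3 peaks stood near the centre. In animal 5, 60.6% of the summits lay in the central part of the peak, from 33.3% to 66.7% of its width, in animal 7 61.3% and in animal 9 61.0%. The 3 whole lists thus agreed within 1 percentage point in spite of their different widths, at 61.0 ± 0.36%. With a −log10 q-value of at least 5 the share was 66.2 ± 0.669%. Cut to the length of the shortest MBD3 list, the lists agreed less closely, at 65.0 ± 3.49%. The outer 10% at both ends together held 1.96%, 1.88% and 2.44% of the summits. In H3K27ac lists the central part held 43.5%, in Pol II S5P lists 47.1% and in H3K4me1 lists 37.6% on average, and MBD3 was higher in every animal by 17.4 ± 1.76, 13.9 ± 1.12 and 23.3 ± 0.610 percentage points. None of these lists overlapped with those of MBD3 (two-sided exact permutation p = 0.1 each, adjusted 0.133). TDG lists, of 125, 240 and 934 peaks, ranged from 44.1% to 72.0% and were not separated from MBD3 (exact permutation p = 0.4).

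**Figure D1:**
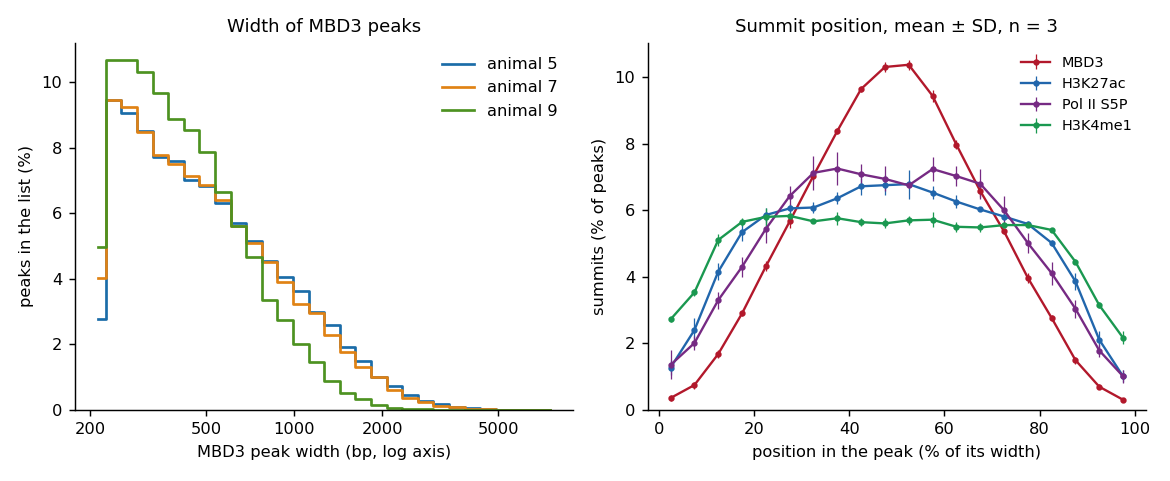
Left, distribution of MBD3 peak widths in each animal's list on a log axis, in percent of peaks per width class. Right, share of summits in 20 equal parts of the peak for MBD3, H3K27ac, Pol II S5P and H3K4me1 (points and bars, mean ± SD over 3 animals). MBD3 summits gather at the centre of the peak, while H3K4me1 summits spread evenly over most of it.

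Central summits were not limited to the narrowest MBD3 peaks. The share in the central part was 69.0 ± 0.758% in peaks under 300 bp, 65.7 ± 0.874% from 300 to 500 bp, 53.3 ± 2.17% from 500 to 1000 bp and 46.5 ± 4.84% in longer peaks. H3K27ac peaks of the same classes had 58.8%, 51.3%, 28.9% and 44.8%. The lists of the antibodies overlapped in peaks of at least 1 kb, where MBD3 ranged from 41.0% to 49.4% and H3K27ac from 42.2% to 46.2%, and were apart in the other classes. This split by width was chosen after the data had been seen and was not tested.

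Neighbouring MBD3 peaks lay further apart than those of the histone marks. The median gap from the end of a peak to the start of the next was 12403 bp in animal 5, 11925 bp in animal 7 and 19381 bp in animal 9. The corresponding gaps were 4541 to 4915 bp in H3K27ac lists and 6565.5 to 11474.5 bp in H3K4me1 lists. For both marks the lists did not overlap those of MBD3 (two-sided exact permutation p = 0.1, adjusted 0.133). With peaks within 500 bp merged, the MBD3 gap exceeded that of H3K27ac by 6828.8 bp in place of 9792.3 bp (exact permutation p = 0.1). For H3K4me1 it was 4609.2 bp in place of 5432.3 bp, and the lists then overlapped (exact permutation p = 0.3). The order against H3K4me1 turned when only peaks with a −log10 q-value of at least 5 were kept, where the MBD3 gap minus the H3K4me1 gap was −21307.7 bp on average. Pol II S5P gaps ranged from 14936.5 to 81486.5 bp and overlapped with MBD3 (exact permutation p = 0.2). The MBD3 list of animal 9, the shortest of the 3, had the longest gaps.

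A minority of MBD3 peaks belonged to clusters, defined as runs of at least 3 peaks with gaps of at most 5000 bp. The share was 25.7% in animal 5, 26.1% in animal 7 and 17.1% in animal 9. Another 51.2%, 50.1% and 59.5% of the peaks had no neighbour within that distance. H3K27ac lists, at 49.7%, H3K4me1 lists, at 38.8%, and Pol II S5P lists, at 31.7%, each had more of their peaks in clusters than any MBD3 list (two-sided exact permutation p = 0.1 and adjusted p = 0.1 for each). With a −log10 q-value of at least 5, the difference from H3K4me1 went from −15.9 to −0.884 percentage points (exact permutation p = 1). With gaps of up to 10 kb the difference from Pol II S5P changed sign, to 1.17 ± 6.75 percentage points. Merging peaks within 500 bp took the difference from H3K27ac from −26.8 to −17.5 percentage points (exact permutation p = 0.1). There were 3739, 4079 and 1846 MBD3 clusters, and the largest held 29, 32 and 14 peaks.

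Peaks of the 3 animals were joined into regions wherever they shared at least 1 bp, which gave 74385 MBD3 regions covering 46.4 Mb. Of these, 30268 regions (40.7%) were called in 3 animals, 17842 (24.0%) in 2 and 26275 (35.3%) in 1. The regions called in 3 animals were long, with a median of 775 bp against 462 and 279 bp, and they made up 28.4 Mb of the covered sequence. Part of this difference is fixed by the joining, since a region spans the peaks of all its animals. Within the lists, single peaks shared by 3, 2 and 1 animals had median widths of 573, 341 and 275 bp (means over 3 animals). Animals 5 and 7 shared 13888 regions that animal 9 lacked, whereas animal 9 shared 2537 with animal 7 alone and 1417 with animal 5 alone. Regions of 1 animal came from animal 7 in 13480 cases, from animal 5 in 10195 and from animal 9 in 2600. Regions that were shared thus form 82.5% of the peaks in the shortest list, animal 9, against 53.9% in animal 5 and 50.1% in animal 7 when 3 animals are required.

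At the regions of 3 animals, the position of the peak was closely repeated. The summits of the strongest peak in each animal were a median of 34 bp apart between animals 5 and 7, 38 bp between 5 and 9 and 36 bp between 7 and 9. Within 50 bp lay 63.0%, 59.6% and 60.7% of the summit pairs. A single peak in each animal made up 90.9% of these regions. The order of fold enrichment was repeated less closely: Spearman's rho across the 30268 regions was 0.723 for animals 5 and 7, 0.496 for 5 and 9 and 0.598 for 7 and 9. These values describe regions of the same genome and carry no test.

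Regions called in more animals carried H3K27ac more often. An H3K27ac peak in at least 2 animals lay at 73.6% of the regions of 3 animals, at 47.2% of those of 2 and at 32.2% of those of 1. The share over all regions was 52.7%. The corresponding shares for Pol II S5P were 16.3%, 5.60% and 1.77%, beside 8.61% of all regions. Regions of more animals were also longer, and the part of length in these shares was not tested. With the summit of a region's strongest peak inside the other peak, the difference between regions of 3 and 1 animals was lower. It was 28.5 points in place of 41.4 for H3K27ac, 10.0 in place of 14.6 for Pol II S5P and −3.13 in place of 5.30 for H3K4me1. Counted with the marks of the same animal, as the labels number them, H3K27ac was 37.1 ± 1.01 percentage points higher at peaks shared by 3 animals than at peaks of 1 animal, and Pol II S5P was 13.2 ± 7.76 points higher, each in 3 of 3 animals (two-sided exact sign-flip permutation p = 0.25, the smallest that 3 animals allow, adjusted 0.333 over 4 marks). H3K4me1 shares lay at 18.5%, 13.6% and 13.2%, and within animals the difference was 0.862 ± 3.43 points (exact permutation p = 0.75). Peaks that overlapped no H3K27ac, Pol II S5P or H3K4me1 peak made up 25.7 ± 5.79% of the peaks shared by 3 animals and 59.7 ± 6.67% of the peaks of 1 animal.

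Each list was next divided into quintiles of fold enrichment, the ratio of signal over background that the authors deposited. The weakest quintile ended at 4.15-fold, 4.00-fold and 4.03-fold and the strongest began at 9.32-fold, 8.80-fold and 8.58-fold in animals 5, 7 and 9. The maxima were 63.7-fold, 56.3-fold and 51.3-fold. The limits between quintiles were thus alike in the 3 lists, although the lists differed in length.

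Strong peaks were wider than weak ones. The median width of the weakest and the strongest quintile was 318 and 791 bp in animal 5, 317 and 728 bp in animal 7, and 351 and 489 bp in animal 9. Both width and fold enrichment are read from the same signal, so this is a description. Summits lay in the central part in 42.7%, 43.2% and 42.0% of the weakest peaks and in 67.7%, 69.1% and 75.6% of the strongest. This difference of 28.2 ± 4.73 percentage points had the same direction within each of 5 width classes in each animal, where it ran from 10.7 to 53.1 points.

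The share of peaks that both other animals had also called was higher in each successive quintile of animals 5 and 7 and was high throughout in animal 9. It was 15.0% in the weakest and 95.7% in the strongest quintile of animal 5, 13.2% and 93.3% in animal 7, and 82.3% and 96.5% in animal 9. The strongest quintile was higher in 3 of 3 animals, by 58.4 ± 38.2 percentage points (two-sided exact sign-flip permutation p = 0.25). In animal 9 the order was not monotonic: the second quintile, at 73.3%, was the lowest, and 95.9% of the 388 peaks in the lowest percentile were called in both other animals, where percentiles rank a list from its weakest to its strongest peak. Among the strongest percentile of peaks, 100%, 99.8% and 100% were called in both others. Peaks above percentile 90 that only 1 animal had called numbered 3 in animal 5, 8 in animal 7 and 1 in animal 9.

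**Figure D2:**
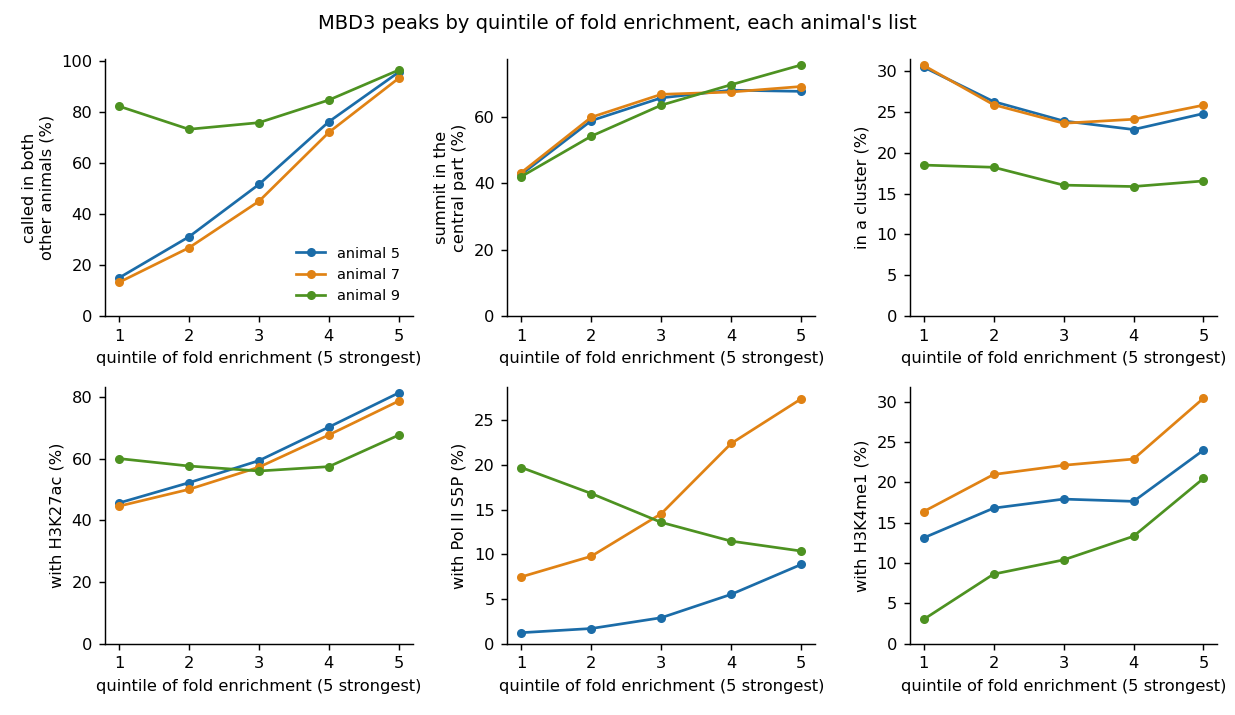
Share of MBD3 peaks in each quintile of fold enrichment (1 weakest, 5 strongest) that were called in both other animals, had a central summit, lay in a cluster or overlapped a peak of H3K27ac, Pol II S5P or H3K4me1 of the same animal. Lines are the 3 animals, and the Pol II S5P line of animal 9 runs from 19.7% down to 10.4% while those of animals 5 and 7 run the other way.

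Overlap with the H3K27ac list of the same animal was higher in the strongest quintile of every animal. It was 45.6% in the weakest and 81.3% in the strongest quintile of animal 5, 44.6% and 78.7% in animal 7, and 60.0% and 67.6% in animal 9, where the middle quintile was lowest at 56.0%. With H3K27ac regions called in at least 2 animals in place of each animal's own list, animals 5 and 7 kept the difference, at 44.2% and 80.2% and at 45.1% and 77.8%, while animal 9 had 73.2% in both quintiles. H3K4me1 gave 13.1% and 24.0%, 16.4% and 30.4%, and 3.03% and 20.5%. The differences were 25.8 ± 15.8 percentage points for H3K27ac and 14.1 ± 3.30 points for H3K4me1 (two-sided exact sign-flip permutation p = 0.25, adjusted 0.333). Within the 5 width classes, H3K4me1 remained higher in the strongest quintile in 15 of 15 combinations of class and animal, and H3K27ac in 8 of 15, with a mean difference of 3.29 ± 6.87 points for H3K27ac (exact sign-flip permutation p = 0.5). With at least 0.5 of the MBD3 peak covered, the H3K4me1 difference was 3.65 ± 3.40 points. When peaks were ranked by q-value instead, the H3K4me1 difference was 0.487 ± 3.44 points.

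Pol II S5P divided the animals. In animal 5, 1.24% of the weakest and 8.88% of the strongest MBD3 peaks overlapped a Pol II S5P peak, and in animal 7, 7.49% and 27.4%. In animal 9 the order was opposite, with 19.7% of the weakest and 10.4% of the strongest peaks. The mean difference of 6.07 ± 14.7 percentage points was therefore smaller than its spread (two-sided exact sign-flip permutation p = 0.75), and it was −0.858 points without animal 7. Within the 5 width classes Pol II S5P was higher in the strongest quintile in 4 of 15 combinations. The Pol II S5P lists themselves differ in length between the animals, the shortest holding 4351 peaks. With a common set of 9206 Pol II S5P regions called in at least 2 animals in place of each animal's own list, the order stayed opposite: 3.82% and 20.8% in animal 5, 4.34% and 17.7% in animal 7, and 20.3% and 6.88% in animal 9. The strongest percentile of animal 9 was an exception, with Pol II S5P at 33.3% of its 381 peaks.

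The same split was seen at identical places. At the 4944 MBD3 regions of 3 animals that carried Pol II S5P in at least 2 animals, the median MBD3 fold enrichment was 9.11 in animal 5, 8.30 in animal 7 and 4.90 in animal 9. At the 21953 regions without Pol II S5P in any animal it was 7.45, 7.38 and 6.44. The first set thus stood at percentiles 78.8 and 77.0 of the lists of animals 5 and 7 and at percentile 37.1 of the list of animal 9, and the second at 67.3, 70.2 and 61.5. H3K27ac showed a smaller split of the same kind, with percentiles of 73.5, 74.3 and 54.5 where it was present and 61.4, 65.0 and 59.0 where it was in no animal. H3K4me1 did not: the percentiles where it was present were higher in 3 of 3 animals, at 73.8, 78.7 and 75.3 against 69.5, 70.0 and 46.6.

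**Figure D3:**
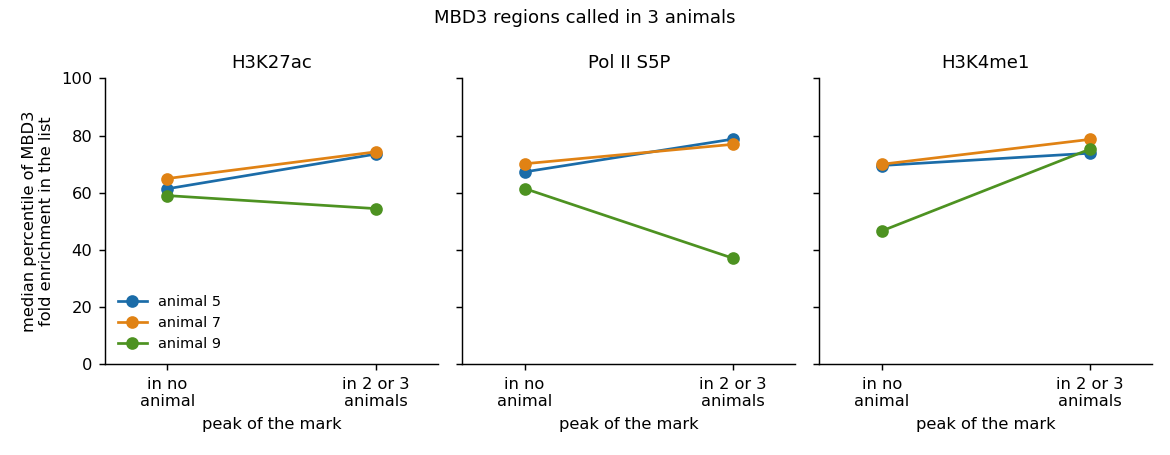
Median percentile of MBD3 fold enrichment within each animal's list at MBD3 regions called in 3 animals, for regions where no animal had a peak of the mark and regions where 2 or 3 animals had one. Points joined by a line are 1 animal, and animal 9 goes from percentile 61.5 to 37.1 for Pol II S5P while animals 5 and 7 go up.

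The relation of fold enrichment to q-value was looser in animal 9 for MBD3, H3K27ac and Pol II S5P. Spearman's rho between both values across the peaks of a list was 0.940 in animal 5, 0.921 in animal 7 and 0.862 in animal 9 for MBD3. It was lowest in animal 9 for H3K27ac (0.770 against 0.892 and 0.875) and Pol II S5P (0.553 against 0.730 and 0.742). For H3K4me1 (0.935 against 0.889 and 0.895) and the short TDG lists (0.865 against 0.402 and 0.607) it was highest in animal 9. When the MBD3 peaks were ranked by q-value, Pol II S5P overlap was higher in the strongest quintile of 3 of 3 animals, by 18.1 ± 15.2 percentage points (two-sided exact sign-flip permutation p = 0.25). Peaks of that quintile were also wider, with a median of 804 bp against 297 bp in the weakest (means over 3 animals). The part of width in this overlap was not tested. The H3K27ac lists were also ranked by fold enrichment. In animal 9 the common Pol II S5P regions were at 8.85% of the weakest and 17.7% of the strongest peaks. The direction was the same in animals 5 and 7, but the difference was 24.5 and 21.8 points there against 8.87 in animal 9. The opposite order was thus met with MBD3 fold enrichment, while with that of H3K27ac animal 9 had a smaller difference in the same direction. The part of the looser relation between fold enrichment and q-value in the opposite order was not tested.

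The weakest quintile of animal 9 consisted largely of regions that stood in the middle of the other lists. Of the regions it marked, 6086 were called in 3 animals, and these had a median percentile of 59.0 in animal 5 and 55.6 in animal 7. Peaks shared by 3 animals had medians of 70.5 and 72.1 in these lists as a whole. The weakest peaks of animals 5 and 7 that were called in 3 animals numbered 1697 and 1609, and they stood at percentiles 25.6 to 36.1 in the other lists. The list of animal 9 was shorter, and these percentiles do not separate its length from a different order of the regions. Across the regions of 3 animals, Spearman's rho of fold enrichment was 0.496 and 0.598 between animal 9 and animals 5 and 7. It was 0.723 between animals 5 and 7.

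The weakest quintile of MBD3 peaks lay in clusters more often than the strongest, without a steady fall between them. The share was lowest in the fourth quintile of animals 5 and 9, at 22.9% and 15.9%, and in the third quintile of animal 7, at 23.6%. The shares in the weakest and strongest quintile were 30.5% and 24.8% in animal 5, 30.7% and 25.9% in animal 7, and 18.5% and 16.6% in animal 9. The strongest quintile was lower by 4.17 ± 1.97 percentage points, in 3 of 3 animals (two-sided exact sign-flip permutation p = 0.25). In H3K4me1 and Pol II S5P lists the strongest quintile was higher in every animal, by 12.6 and 18.2 points on average. H3K27ac lists gave −1.89, 1.82 and 7.94 points and the short TDG lists −20, −4.17 and 13.5 points, so neither had 1 direction. The exact permutation p between MBD3 and TDG was 0.8. The difference between MBD3 and each of H3K4me1 and Pol II S5P reached the smallest p that 3 against 3 allow (two-sided exact permutation p = 0.1, adjusted 0.133). Ranked by q-value, the MBD3 difference was −1.15 ± 2.13 points and was positive in 1 of 3 animals.

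MBD3 density differed between chromosomes by a factor of 2.01 ± 0.0817 (n = 3). Density was counted over the length up to the last peak of any list on the chromosome. Over chromosomes 1 to 19 there were 23.1, 24.9 and 15.8 peaks per Mb in animals 5, 7 and 9. Chromosome 11 was densest, at 34.1, 35.3 and 23.1 peaks per Mb, and chromosome 3 sparsest, at 16.3, 18.3 and 11.6. Divided by the density of the whole list, chromosome 11 stood at 1.46 ± 0.0308 and chromosome 3 at 0.725 ± 0.0162, so the relative spread between animals was small beside the distance between these chromosomes. Chromosome 9 followed chromosome 11 at 1.21 ± 0.0167, and chromosomes 19, 15 and 7 had 1.17 ± 0.0213, 1.12 ± 0.00456 and 1.12 ± 0.0137. The values of chromosomes 15 and 7 do not differ beyond their spread. At the other end, chromosome 14 had 0.818 ± 0.0251 and chromosome 1 had 0.855 ± 0.0173.

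**Figure D4:**
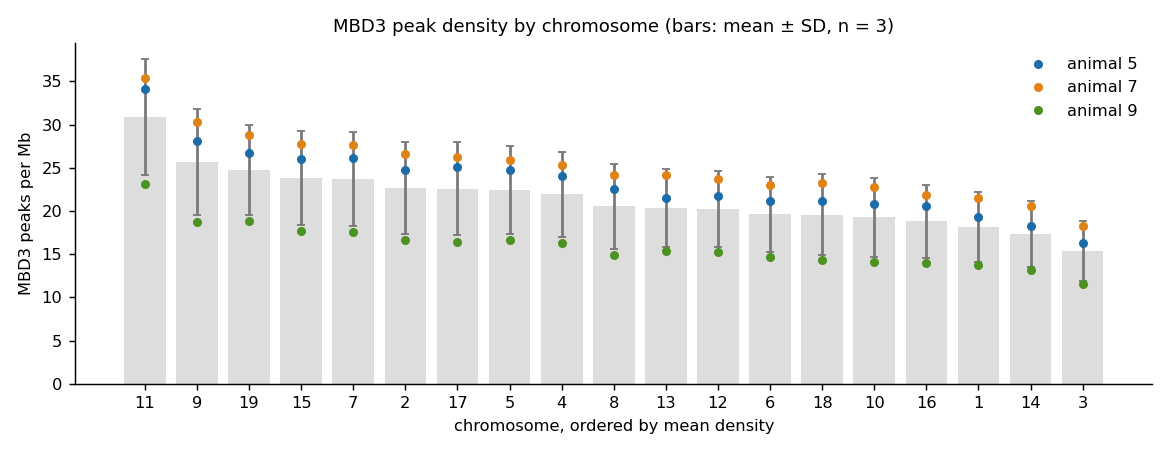
MBD3 peaks per Mb on each of 19 chromosomes, ordered by the mean over 3 animals (grey bars, error bars SD, n = 3), with each animal as a point. The order is nearly the same in the 3 animals, and chromosome 11 holds about 2.01 times the density of chromosome 3.

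The order of the 19 chromosomes was nearly the same in each pair of animals, with Spearman's rho between 0.983 and 0.993. Across chromosomes, MBD3 density went with H3K27ac density (rho 0.847), with protein-coding genes per Mb, counted in RefSeq on GRCm38.p6 (0.795), and with Pol II S5P density (0.790), and less with H3K4me1 density (0.384). These correlations over 19 chromosomes are descriptions, as peaks of all antibodies share the mappable sequence of a chromosome. The factor between the densest and the sparsest chromosome was 1.64 ± 0.0292 for H3K27ac, 1.59 ± 0.0243 for H3K4me1 and 2.04 ± 0.0908 for Pol II S5P.

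Along the chromosomes, MBD3 regions were counted in 2468 bins of 1 Mb. The median bin held 23 regions, the densest 10% of the bins held 28.6% of the regions, and 171 bins (6.93%) held none. In the lists of single animals the densest 10% held 30.3%, 28.8% and 29.1% of the peaks. The mean of 29.4 ± 0.796% stood below the 31.9% of H3K27ac, the 38.0% of H3K4me1 and the 45.8% of Pol II S5P. This comparison was not tested. Bin counts of 2 animals had Spearman's rho of 0.978 to 0.987, and MBD3 had rho of 0.928 with H3K27ac across the bins.

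The densest bin lay on chromosome 4 from 42000001 to 43000000 (mm39), with 147, 152 and 107 MBD3 peaks in animals 5, 7 and 9 and a mean of 137 H3K27ac peaks. Next came the bins that start at 64000001 on chromosome 14, 100000001 on chromosome 12, 138000001 on chromosome 4 and 97000001 on chromosome 11, with means of 109, 105, 103 and 97.3 MBD3 peaks. At the sparse end, 42 non-empty bins tied at a mean of 0.333 peaks, so no 5 of them are named. Of the 171 empty bins, 57 were the first 3 Mb of the 19 chromosomes, which hold no MBD3 peak. Of the other 114, 82 also lacked H3K27ac, H3K4me1 and Pol II S5P peaks and 28 held an H3K27ac peak. Past the first 3 Mb, the longest empty stretches measured 3 Mb and lay on chromosome 7 from 20000001 to 23000000 and on chromosome 14 from 89000001 to 92000000.

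Single regions are named by position in mm39, without gene names, since no annotation of that build was used here. The region with the best mean rank was chr3:79343379-79343993, with 59.9-fold, 47.7-fold and 41.4-fold enrichment in animals 5, 7 and 9. The second was chr15:10840389-10841233, with 51.0-fold, 56.3-fold and 39.4-fold enrichment, and the third chr6:108298063-108299056, with 48.5-fold, 41.9-fold and 46.3-fold enrichment. The next 2 were chr1:24017102-24017866 and chr3:143300058-143301037. All 10 best regions had H3K27ac peaks in 3 animals, were 615 to 1176 bp long and had summits within 5 to 37 bp of each other across the animals. None had Pol II S5P in 3 animals, and 1, on chromosome 11, had a TDG peak in 1 animal. Over the 1000 regions of best mean rank, 78.1% had H3K27ac in 3 animals and 3.3% had Pol II S5P in 3, beside 63.4% and 5.38% of all regions called in 3 animals. Pol II S5P was absent in every animal at 66.2% of these 1000 regions, beside 72.5% of all. Among the 100 best regions, 40% lacked it in every animal and 8% had it in 3.

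The widest regions were not the strongest. The widest, chr5:142801804-142809782, measured 7979 bp and had 10.6-fold, 10.4-fold and 6.39-fold enrichment, which placed it at percentiles 85.5, 87.2 and 60.9. The second widest, chr14:70859974-70867354, measured 7381 bp and had 10.4-fold, 8.72-fold and 9.38-fold enrichment. The 5 widest regions all had H3K27ac in 3 animals and joined 1 to 5 peaks per animal. At the other extreme, the 5 strongest regions of a single animal reached 12.6-fold to 13.5-fold enrichment and were 224 to 387 bp long. The first of them, chr5:5142803-5143078, was called in animal 7 at 13.1-fold and had no peak of another antibody in any animal.

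Regions in larger clusters carried H3K27ac more often. An H3K27ac peak in at least 2 animals lay at 40.6% of single regions, 53.2% of regions in pairs, 64.0% in groups of 3 to 4, 75.9% in groups of 5 to 9 and 83.9% in groups of 10 or more. The share called in 3 animals was nearly the same in these classes, from 40.0% to 41.5%. Regions of 1 group are neighbours and not independent, so these shares are descriptions.

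The largest cluster went against this order. It held 46 regions in 93275 bp at chr6:114519909-114613183 and had no H3K27ac, H3K4me1, Pol II S5P or TDG peak in any animal. Animal 5 had 33 peaks there, animal 7 had 39 and animal 9 had 5, with median fold enrichments of 3.72, 3.73 and 3.38 and a maximum of 5.83. These medians lie within the weakest quintile of each list. Only 5 of its 46 regions were called in 3 animals, and neighbouring midpoints lay a median of 2262.5 bp apart. The second largest cluster, of 25 regions at chr7:74903467-74959829, had H3K27ac at all 25 regions in some animal and maxima between 24.5-fold and 31.7-fold. The third, of 22 regions at chr6:86003596-86052292, likewise had H3K27ac at all 22.

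Evenly spaced runs were looked for among the regions: at least 5 neighbours whose midpoints lie 1 to 20 kb apart with a coefficient of variation under 0.1. There were 36 such runs with 195 regions in total, of which 29 had 5 regions and 7 had 6 or more. In 1 run every region was called in 3 animals. It lay at chr4:88691785-88724540 and consisted of 12 regions of 500 to 748 bp whose midpoints were 2922.6 ± 102 bp apart (SD over the gaps of the run). Fold enrichment ran from 3.75 to 11.2 in animal 5, from 6.12 to 8.92 in animal 7 and from 2.94 to 6.82 in animal 9, and no H3K27ac, H3K4me1 or Pol II S5P peak of any animal overlapped a region of the run.

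**Figure D5:**
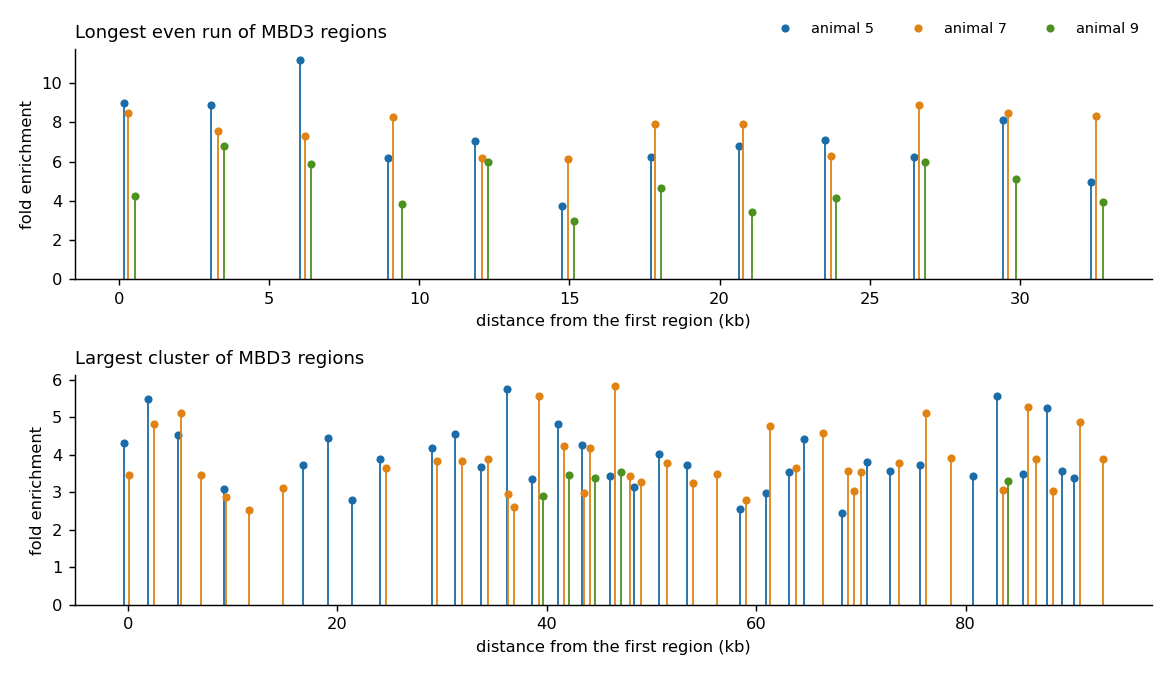
Fold enrichment of every MBD3 peak against the distance from the start of the first region, for the even run of 12 regions (top) and the largest cluster of 46 regions (bottom). Lines are peaks of the 3 animals, moved slightly sideways so that they do not cover each other; the run repeats about every 2.92 kb in 3 animals, and the cluster has 5 peaks in animal 9.

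Besides this run, 7 more had no H3K27ac, H3K4me1 or Pol II S5P peak in any animal. One lay on the same chromosome at chr4:42234185-42248846, within the densest bin, and had 6 regions spaced 2849 ± 83.7 bp apart, of which 4 were called in 3 animals. On chromosome 6, 4 runs of 5 to 7 regions formed part of the largest cluster, with mean spacings from 2370.2 to 2573 bp. On chromosome 8, 2 runs of 5 and 7 regions followed each other at chr8:124328277-124335511 and chr8:124340128-124350569, with spacings of 1705.2 ± 93.6 and 1688 ± 94.2 bp and no peak in animal 9. The most even run of all, at chr17:70879050-70894313, had 5 regions spaced 3705.5 ± 30.7 bp apart and an H3K27ac peak at each of the 5, and none of its regions was called in 3 animals. Runs were selected for even spacing, so their evenness is a description and whether the underlying sequence repeats was not tested.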

How the data were processed

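MBD3, H3K27ac, H3K4me1, Pol II S5P and TDG were each measured by ChIP-seq in the cortex of the same 3 animals, and the animal number of the labels pairs the lists. The deposited lists of H3K27ac, H3K4me1 and Pol II S5P are themselves numbered 1 to 3 and those of MBD3 and TDG 5, 7 and 9, so that values counted with the marks of the same animal rest on the labels alone. The authors deposited 1 peak list per animal and antibody, with coordinates on mm39. Per the submitters' processing notes the tools included MACS2 2.2.7.1 for peaks, beside Picard 2.18.29, bcl2fastq 2.20, SAMtools 1.16.1 and Trim Galore 0.6.7, and the builds mm39 and hg38. Aligner and control library were not given in the sources used here. Each peak's deposited values are the fold enrichment (a ratio), the −log10 p-value, the −log10 q-value, a score and the summit's offset from the peak start. Peaks were called per sample, and the read depth behind the lists is unknown, so no counting interval is given. The 3 input libraries were not used here.

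Chromosomes 1 to 19 were kept. This leaves out the unplaced contigs, whose names carry a doubled prefix in the lists of MBD3 and TDG. Overlap means at least 1 bp. The animal is the replicate in every test: a two-sided exact permutation test of 3 libraries against 3 (smallest p 0.1), or an exact sign-flip permutation over 3 animals (smallest p 0.25), with Benjamini-Hochberg adjustment over the 4 other antibodies. No design of this size can pass 0.05. Analyses ran in Python 3.11.15 with numpy 2.4.6 and pandas 2.3.3, and the functions were tested on simulated data. Regions were named by a fixed rule: the 10 of best mean rank, the 5 widest of 3 animals, the 5 strongest of 1 animal, the 5 densest and 5 sparsest bins (of which the sparsest are not named, because more than 5 tied), the 3 largest clusters and the even runs. The members and lists were chosen with earlier results of these data known. Promoters, gene lists and sequences were not analysed here, because the annotation tables use GRCm38.p6, a build other than that of the lists. Alternatives covered a stricter q-value, lists of equal length within each antibody (cut to its shortest list), each animal left out, other gaps, bins, joins and rankings.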

Additional observations from a re-analysis of the deposited data

Results flagged for a closer look

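The strongest quintile of MBD3 peaks had 4.17 percentage points fewer peaks in clusters than the weakest (mean difference −4.17 over 3 animals), while the same difference was positive in every Pol II S5P list and in every H3K4me1 list. The difference between the antibodies had an exact permutation p of 0.1 against each, the smallest possible with 3 against 3. It is listed because every MBD3 list went one way and every Pol II S5P and H3K4me1 list the opposite way. TDG lists of animals 5 and 7 and the H3K27ac list of animal 5 went the same way as MBD3. Ranked by q-value, the MBD3 difference was positive in 1 of 3 animals.

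MBD3 peaks were also listed on chromosome Y, outside chromosomes 1 to 19, although the mice are labelled female. There were 14 in animal 5, 15 in animal 7 and 13 in animal 9, with median fold enrichments of 3.78, 3.99 and 3.45 and maxima of 13.8, 17.0 and 19.4. Chromosome X had 870, 962 and 492 MBD3 peaks.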

How the results depend on the processing

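Of 22 tested differences, 17 kept their direction in every alternative run, and none crossed a threshold of 0.05, which this number of animals cannot reach. The test paired by animal (the replicate block) changes only the p-value, since the mean difference is the same by construction, so it could not change a direction. It gave an exact sign-flip permutation p of 0.25 for each of 2 differences from H3K27ac, −192.3 bp for width and 17.4 points for the summits. The other 5 changed sign somewhere. With a −log10 q-value of at least 5, the gap to H3K4me1 became −21307.7 bp, the summit difference from TDG −2.76 points and the cluster difference from TDG −0.282 points. Lists of equal length within each antibody gave −3.56 points for the summits against TDG, and gaps of up to 10 kb gave 1.17 points for clusters against Pol II S5P. The Pol II S5P difference between quintiles became −0.350 points with the stricter q-value, −0.687 with a coverage of 0.5 of the peak and −2.84 within width classes, an alternative chosen after seeing the data. Leaving out 1 animal gave −0.858 to 13.8 points, lowest without animal 7.

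Values without a test moved as follows. The stricter q-value gave a width of 496 bp, central summits of 66.2%, gaps of 20021.5 bp, 15.8% in clusters, 17122 regions of 1 animal and an H3K27ac difference between regions of 3 and 1 animals of 39.6 points (main value 41.4). Lists of equal length gave 499 bp, 65.0%, 20286.3 bp, 14.7%, 11211 regions of 2 animals, 36.8 points for H3K27ac, 5.13 for Pol II S5P (main value 14.6), and 28.6% of peaks and 27.5% of regions in the densest 10% of bins. The part of the peak from 25% to 75% of its width held 80.8% of summits. Clusters held 4.22% with gaps of 1 kb and 39.9% with 10 kb. Bins of 5 Mb gave 23.3% of peaks and 22.7% of regions in the densest 10%, 0.266% empty in single lists and 0% empty of regions. With the summit inside the other peak, H3K27ac gave 28.5 and H3K4me1 −3.13 points. Without 1 animal each, H3K27ac gave 31.7 to 32.8 points and Pol II S5P 3.87 to 10.9 points, lowest without animal 7 and 4.08 without animal 9. These runs compared regions called in both remaining animals with regions called in 1, and a mark had to be present in both remaining animals. They are therefore a different contrast from the main values, which compare regions of 3 and 1 animals. In the runs without 1 animal, empty bins ran from 7.05% to 8.31% and the densest 10% of regions from 28.5% to 29.6%. Depth is unknown, so the part of sequencing depth in the shorter list of animal 9 was not tested.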
